A study of Mus musculus with 90 samples.

Results

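The mouse genome holds, on chromosome 12, a cluster of genes with the coding sequence of a translation initiation factor, and their transcripts were followed here from the mature oocyte to the 8-cell embryo together with those of their relative Eif1a on chromosome 18. The members are 8 listed gene symbols (BB287469, Gm4027, Gm8300, Gm2016, Gm2022, Gm5662, Gm2035 and Eif1a). A symbol entered if the deposited count table has a row for it, which gave 7 of the 24422 gene rows of the series. Gm2035 was not analysed here. The 6 rows on chromosome 12 are called the copies below.

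The study measured the 5′ ends of transcripts in single oocytes and single whole embryos of mice on the CD-1 strain, with molecular identifiers and added ERCC spike-in RNA, to ask what maternal Plag1 is needed for around zygotic genome activation (ZGA). Oocytes at metaphase II (MII) were picked unfertilised and uncultured 21 to 23 h after hCG from superovulated females that were WT or Plag1 knockout. Zygotes of such females mated with WT males were cultured to the 2-cell (2c, 45 to 47 h) and 8-cell (8c, 71 to 73 h) stages. The MII to 2c comparisons are therefore also uncultured against cultured. The embryos labelled matPlag1KO are therefore heterozygous: they lack the maternal allele, carry an intact paternal allele, and differ from WT embryos in their mother as well as in their own genotype. After 12 of 90 libraries were left out for low content, 16 WT and 14 knockout MII oocytes, 11 WT and 11 matPlag1KO 2c embryos, and 15 WT and 11 matPlag1KO 8c embryos remained. The mothers are not named in the labels, so littermates could not be grouped and the spread between libraries is that between single oocytes or embryos. The labels give 2 pooled libraries, libA and libB, which are called plates A and B below. Embryos were picked on several occasions, which the labels do not give.

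Eukaryotic initiation factor 1A (eIF1A) is a small protein that binds the decoding site of the small ribosomal subunit, helps to recruit the initiator tRNA and lets the complex scan the messenger RNA for its start codon. In the mouse it is encoded by the X-linked Eif1ax and the autosomal Eif1a. The chromosome 12 copies are known from the 2c embryo, the stage of major ZGA in the mouse, and from cultured cells with a similar transcript profile.

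The copies are near-identical in sequence, so which reads can be assigned to which row comes before any value. On mm9, the build of the count table, BB287469 spans chr12:88959818-89059124 on the plus strand, Gm4027 chr12:88959859-88963093 (+), Gm8300 chr12:88855266-88859215 (+), Gm2016 chr12:89112520-89116307 (+), Gm2022 chr12:89131278-89135166 (+) and Gm5662 chr12:89509080-89512941 on the minus strand, within 657676 bases in all. Eif1a spans chr18:46757358-46769879 (+). In the GENCODE vM1 annotation of the same build, each of the 7 rows holds a coding region of 435 bases, stop codon included, in 1 block. That region of Gm2022 is annotated there as a transcript of BB287469, so the names of the copies are not fixed between annotations.

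The coding region compared for BB287469 begins at chr12:89057769. That of Gm4027 begins at chr12:88962550, also within the BB287469 row. The coding bases of BB287469 and Gm4027 had 0 differences. Between BB287469 and the other 4 copies 8 to 12 of 435 bases differed, and Gm2016 and Gm5662 differed from each other at 4. Eif1a differed from BB287469 at 28 bases (93.6% identity), and from the other copies at 22 to 28. Eif1ax differed from BB287469 at 71 bases and from Eif1a at 63. The copies were thus closer to Eif1a than to Eif1ax in every pair compared.

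The reads report the 5′ end, so the bases around the start of each row matter most for what can be told apart. The mm9 sequences below run from 75 bases before to 30 bases after the first base of the BB287469 row. The other rows are aligned to it by a 13-base stretch that all share (agtagtctcatct). Capitals mark bases that differ from the first line. The BB287469 row holds 2 such starts, and both are shown, named for the row in which they lie.

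BB287469, chr12:88959743-88959847 (+): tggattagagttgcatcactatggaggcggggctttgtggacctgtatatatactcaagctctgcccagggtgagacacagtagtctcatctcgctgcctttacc
BB287469 second copy, chr12:89054950-89055054 (+): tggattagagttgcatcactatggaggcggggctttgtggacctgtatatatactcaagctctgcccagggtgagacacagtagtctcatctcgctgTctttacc
Gm8300, chr12:88855191-88855295 (+): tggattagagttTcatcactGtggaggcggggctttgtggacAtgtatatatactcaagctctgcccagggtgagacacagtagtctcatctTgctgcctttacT
Gm2022, chr12:89131173-89131277 (+): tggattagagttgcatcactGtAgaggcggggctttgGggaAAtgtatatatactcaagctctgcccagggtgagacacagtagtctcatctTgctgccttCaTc
Gm5662, chr12:89512914-89513018 (-): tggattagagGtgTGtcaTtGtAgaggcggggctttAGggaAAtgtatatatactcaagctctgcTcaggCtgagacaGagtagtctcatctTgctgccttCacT
Gm2016, chr12:89112446-89112550 (+): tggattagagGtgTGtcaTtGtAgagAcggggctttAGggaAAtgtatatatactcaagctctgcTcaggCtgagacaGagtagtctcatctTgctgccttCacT

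Of these 105 bases, the second BB287469 copy differed from the first at 1, Gm8300 at 5, Gm2022 at 8, Gm5662 at 16 and Gm2016 at 17, while Gm2016 and Gm5662 differed from each other at 1. All 6 sequences held the palindrome TATATATA with its first base 30 bases before the start, which 0.756% of 32544 RefSeq promoters of 300 bases (GRCm38) held anywhere on either strand. The 8 bases GGCGGGGC, which do not overlap it, were in 5 of the 6 sequences (all but Gm2016) and in 14.3% of those promoters. Both stretches were picked from the BB287469 sequence, and the other sequences are aligned to it and much like it. That they share them was therefore near fixed, and the 6 are not independent cases. These are matches of letters and do not show that a factor bound there.

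A read of 50 bases from the first base of a row was searched for exactly in the whole mm9 genome. Such a read was unique for Gm8300 and for Gm2022. That of BB287469 occurred at 3 places, 2 of which lie in no row of the table. That of Gm4027 occurred at 2 places, both inside the BB287469 row, because the Gm4027 row begins 41 bases into it and lies wholly within it. The start of Gm5662 also occurred in Gm2016, and that of Gm2016 also occurred 3 bases before the first base of Gm5662. Counts of BB287469 and Gm4027, and of Gm2016 and Gm5662, therefore cannot be told apart at their starts, and how reads with several matches were counted is not given in the sources used here. The Gm2022 row begins 30 bases and the Gm4027 row 41 bases after the aligned start, so ends at the aligned start itself would fall outside both rows.

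The aligned start recurred more often than the rows. On chromosome 12, 21 places carried the 13-base stretch with at most 20 differences in the 105 bases, between positions 88832724 and 89582329, and the next most alike place differed at 64. Of the 21, 6 lay in or at the start of a member's row, 3 in other rows on the same strand and 12 in no row on their strand. Promoters from RefSeq (GRCm38) were used here for 2 of the members. That of Gm4027 held the first BB287469 sequence above, and that of BB287469 held the second. The first sequence is thus named for its row, while RefSeq places it at Gm4027.

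**Figure D1:**
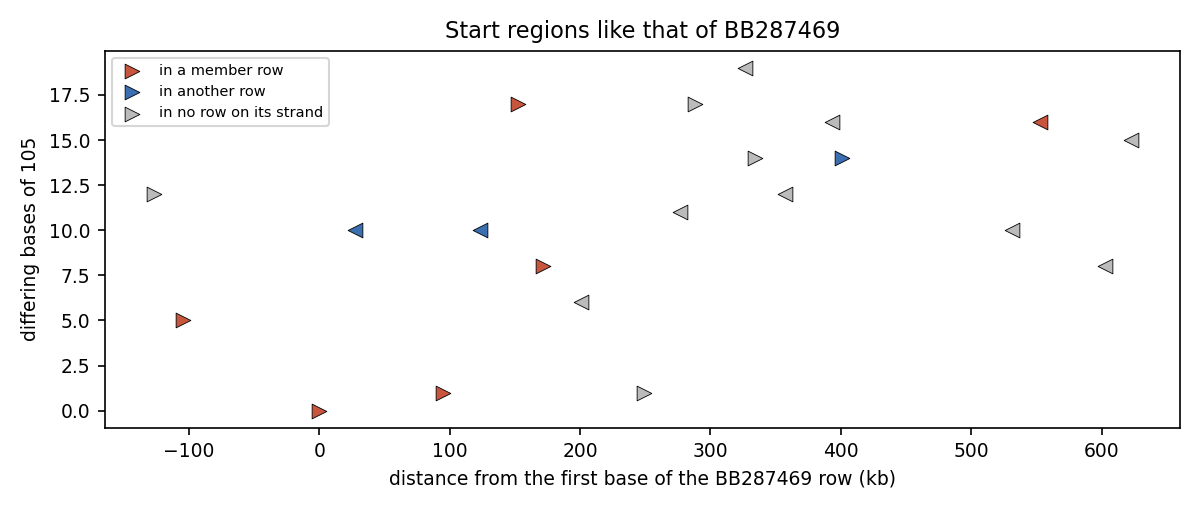
Each triangle is a place on chromosome 12 that carries the shared stretch, pointing along its strand, with its distance from the first base of the BB287469 row in kb on the x axis and the number of its 105 bases that differ from BB287469 on the y axis. The colours show that 6 of 21 places belong to a member's row, 3 to another row and 12 to no row on that strand.

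Values are given below as counts, as CPM, that is counts per 1000000 counts on TMM-scaled library sizes, or as counts per 1000 spike-in counts. A count stands for a transcript 5′ end and is not divided by gene length. Stages were compared on the spike-in scale, which measures RNA per oocyte or embryo, so that more cells and more RNA per cell cannot be told apart. Genotypes were compared on the CPM scale. The test was edgeR's quasi-likelihood test over 16511 genes, and a gene is said to be called where its p, adjusted after Benjamini and Hochberg, was below 0.05. All 7 rows passed the filter on low values.

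The copies were close to absent from MII oocytes, high in 2c embryos and low again at 8c, whereas Eif1a rose at 2c and again at 8c. BB287469 held 9 counts in all over the 16 WT oocytes, with counts in 4 of them, and 6 over the 14 knockout oocytes, in 3 of them. At 2c every embryo had BB287469 counts. WT embryos had a lowest, median and highest value of 203, 771 and 2356 CPM, and matPlag1KO embryos one of 416, 1036 and 2460 CPM. At 8c the same values were 2.10, 7.16 and 39.2 CPM for WT, then 0, 15.1 and 26.4 CPM for matPlag1KO embryos. The 2c values lay above every MII and 8c value of either genotype, and the genotypes overlapped at each stage.

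Gm2016 followed the same course at a lower share of the counts. It had 4 counts over the WT oocytes and 4 over the knockout oocytes. At 2c its lowest, median and highest values were 41.0, 197 and 969 CPM in WT and 185, 537 and 1205 CPM in matPlag1KO embryos. At 8c it was counted in 5 of 15 WT embryos, up to 23.2 CPM, and in 6 of 11 matPlag1KO embryos, up to 23.4 CPM. All 2c values were again above the oocyte and 8c values.

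Gm2022 and Gm8300, the copies whose row-start reads are unique, had the fewest counts of the 4 abundant copies, at 2c as well as outside it. Gm2022 had 0 counts in all 30 oocytes, 149 counts in WT and 200 in matPlag1KO 2c embryos, then 0 in WT and 1 in matPlag1KO 8c embryos. Its lowest, median and highest 2c values were 16.8, 62.6 and 240 CPM in WT and 32.3, 90.2 and 181 CPM in matPlag1KO embryos. Gm8300 had 2 counts in WT oocytes, 0 in knockout oocytes, and 0 in all 26 8c embryos. Its 2c values were 4.56, 25.9 and 149 CPM in WT and 37.0, 87.6 and 147 CPM in matPlag1KO embryos. A group of libraries at 0 allows up to 3 counts, and this limit covers only the counting error of that group.

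Gm4027 and Gm5662, the rows whose starts are shared with a row of more counts, had few counts. Gm4027 had 1 count in the oocytes of both genotypes together, 4 counts in 4 of 11 WT and 18 counts in 8 of 11 matPlag1KO 2c embryos, and 1 count in all 8c embryos. Gm5662 had 0 counts in oocytes, 3 counts in 3 WT and 7 counts in 4 matPlag1KO 2c embryos, and 1 count in each genotype at 8c.

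Eif1a, the autosomal gene for eIF1A itself, had another order of stages. It held 3 counts in 2 of 16 WT and 4 counts in 4 of 14 knockout oocytes. At 2c it was counted in 10 of 11 WT embryos, with lowest, median and highest values of 0, 32.8 and 90.1 CPM, and in 8 of 11 matPlag1KO embryos, with 0, 7.97 and 52.6 CPM. At 8c every embryo had counts, with 195, 284 and 398 CPM in WT and 168, 219 and 291 CPM in matPlag1KO embryos. The 8c values lay above every earlier value, and 2c and MII values overlapped because 4 of the 22 2c embryos had 0 counts.

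**Figure D2:**
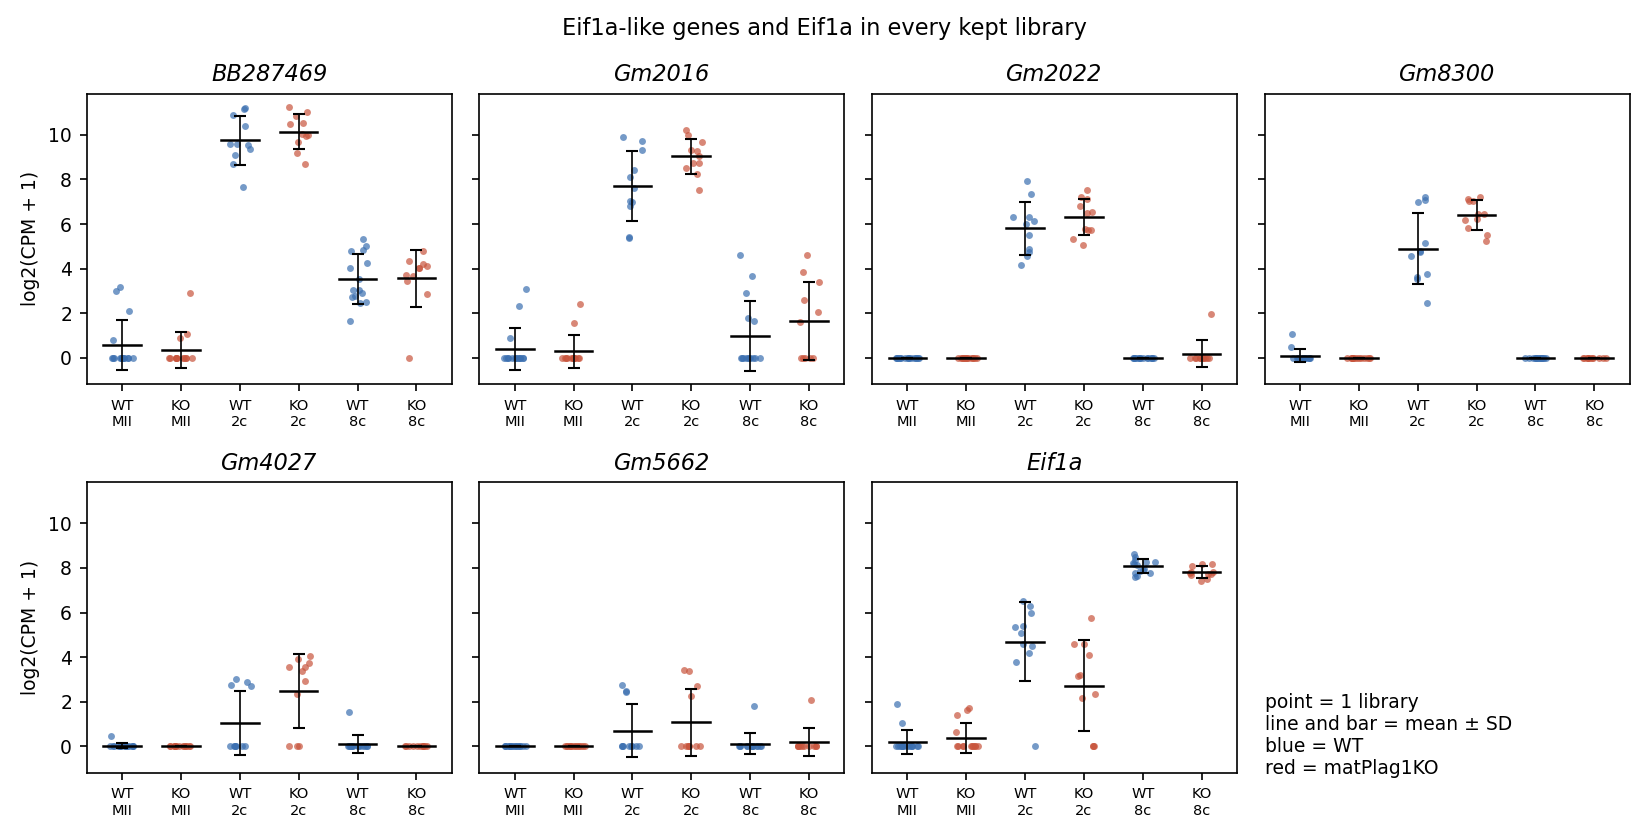
Level of each gene in every kept library as log2(CPM + 1), with WT in blue, matPlag1KO in red, and lines and bars for the mean and SD of each group (16, 14, 11, 11, 15 and 11 libraries from left to right). The copies peak in the 2c groups, while Eif1a is highest in the 8c groups.

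From MII to 2c, 6 of the 7 genes were called higher in WT, where 14.1% of all tested genes were called higher and 51.3% lower. In the matPlag1KO series all 7 were called higher, against 13.5% higher and 50.3% lower over all genes. For Gm2022, Gm8300, Gm4027 and Gm5662 this direction was favoured by the filter, so their calls are no separate support. Rows with shared reads are not independent either. On the spike-in scale BB287469 went from 0.0593 ± 0.111 (SD, n = 16) to 20.5 ± 13.1 (n = 11) counts per 1000 in WT, a log2 fold change of 8.22 (SE 0.56, adjusted p = 4.63e-23). In the matPlag1KO series it went from 0.0403 ± 0.0901 (n = 14) to 27.6 ± 14.0 (n = 11), a log2 fold change of 8.99 (SE 0.61, adjusted p = 1.38e-22). Over all tested genes the median change on the log2 scale was -1.46 in WT and -1.42 in the matPlag1KO series, so the called members rose while the typical transcript fell.

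Gm2016 rose by a log2 fold change of 7.41 in WT (SE 0.66, adjusted p = 6.22e-17) and 8.32 in the matPlag1KO series (SE 0.70, adjusted p = 7.46e-18). For Gm2022, at 0 in all oocytes, the pooled 2c counts were set against a floor of 3 counts over the oocyte group. Against that floor it was 76.7-fold higher at 2c in WT and 87.2-fold higher in the matPlag1KO series. The 2c counts were taken as exact, so their counting error and the spread between embryos are not in such values. Gm8300 rose by 5.27 in WT on the log2 scale (SE 0.63, adjusted p = 3.09e-10). In the matPlag1KO series, with 0 oocyte counts, Gm8300 was 92.9-fold higher at 2c against the same floor.

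Eif1a rose at the same step in both series. Its log2 fold change from MII to 2c was 4.59 in WT (SE 0.56, adjusted p = 2.99e-11) and 2.92 in the matPlag1KO series (SE 0.60, adjusted p = 1.71e-05). Gm5662 passed the test in both series on 3 and 7 counts, with adjusted p = 0.029 and 0.00152. Gm4027 missed it in WT (log2 fold change 1.51, SE 0.63, adjusted p = 0.0887), where it had 4 counts at 2c, and passed it in the matPlag1KO series (adjusted p = 1.37e-06).

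From 2c to 8c the copies and Eif1a parted. In WT, 4 copies (BB287469, Gm2016, Gm2022 and Gm8300) were called lower and Eif1a higher, against 16.2% of all genes lower and 31.9% higher. In the matPlag1KO series 5 copies were called lower, Gm4027 being the fifth, and Eif1a again higher, against 19.5% lower and 29.1% higher over all genes. The fall of Gm2022, Gm8300 and Gm4027 was again favoured by the filter, which they passed only through 2c libraries. BB287469 fell to 0.530 ± 0.485 (n = 15) counts per 1000 spike-in counts in WT 8c embryos and to 0.533 ± 0.426 (n = 11) in matPlag1KO 8c embryos. Its log2 fold changes were -5.26 (SE 0.48, adjusted p = 2.17e-16) and -5.68 (SE 0.56, adjusted p = 8.39e-15).

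Gm2016 fell by 5.98 on the log2 scale in WT (SE 0.60, adjusted p = 2.06e-14) and fell by 5.95 in the matPlag1KO series (SE 0.67, adjusted p = 2e-12). Gm2022 and Gm8300 in WT, at 0 counts in all 15 8c embryos, were at least 82.1-fold and 52.4-fold higher at 2c. Gm8300 in the matPlag1KO series was 69.5-fold higher at 2c against the same floor. Eif1a rose by a log2 fold change of 3.75 in WT (SE 0.46, adjusted p = 6.16e-11) and 4.83 in the matPlag1KO series (SE 0.51, adjusted p = 1.86e-13).

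Summed over the 6 copies, 2c embryos held 1561 ± 1190 CPM in WT (n = 11) and 2069 ± 973 CPM in matPlag1KO (n = 11), against 17.5 ± 13.4 (n = 15) and 19.3 ± 11.7 CPM (n = 11) at 8c. The copies took 0.0378% to 0.425% of all gene counts of a WT 2c embryo and 0.0898% to 0.495% of those of a matPlag1KO 2c embryo. The spread between embryos of 1 group was wide, from 281 to 3559 CPM in WT and from 679 to 3884 CPM in matPlag1KO embryos.

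**Figure D3:**
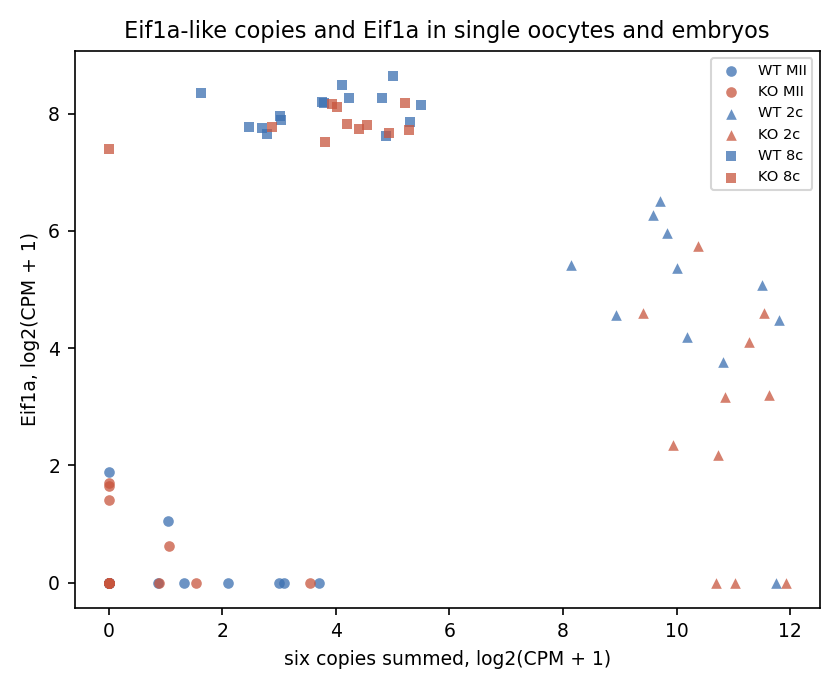
Each point is 1 library, with the summed level of the 6 copies on the x axis and Eif1a on the y axis, both as log2(CPM + 1). Oocytes (circles) lie near the origin, 2c embryos (triangles) at high copies and low to middle Eif1a, and 8c embryos (squares) at low copies and high Eif1a.

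The loss of maternal Plag1 was compared with WT at each stage. At 2c, Eif1a was lower in matPlag1KO embryos, and the 6 copies had higher fitted values that did not pass the test. Of the 7 genes 1 was called lower and 0 higher, where 2.62% of all tested genes were called lower and 2.3% higher. Eif1a stood at 37.8 ± 27.9 CPM in WT (n = 11) and 12.6 ± 15.8 CPM in matPlag1KO embryos (n = 11), a log2 fold change of -1.51 (SE 0.43, adjusted p = 0.0253), on 75 and 32 counts. The groups overlapped over most of their range.

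The call on Eif1a was not firm. It was lost with spike-in totals as library sizes (adjusted p = 0.133), with all libraries kept (adjusted p = 0.111), in a fit of only the 2 groups (adjusted p = 0.102), in each plate alone, and without any of 3 single embryos: a WT embryo of plate A in well D5, a WT embryo of plate B in well C4 and a matPlag1KO embryo of plate B in well D2, where the adjusted p was 0.0767, 0.0545 and 0.0566. Its direction held in both library plates: 42.2 ± 41.1 (n = 4) against 10.3 ± 9.35 CPM (n = 5) in plate A and 35.4 ± 20.9 (n = 7) against 14.6 ± 20.5 CPM (n = 6) in plate B.

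Among the copies at 2c, BB287469 averaged 1095 ± 762 CPM in WT and 1283 ± 638 CPM in matPlag1KO embryos (log2 fold change 0.23, 95% interval -0.48 to 0.94, adjusted p = 0.773). By plate it pointed both ways, with 1129 against 894 CPM in plate A and 1075 against 1606 CPM in plate B. Gm2016 averaged 337 ± 329 and 595 ± 312 CPM (log2 fold change 0.82, 95% interval -0.04 to 1.68, adjusted p = 0.271). Its mean was higher in matPlag1KO embryos in plate A (338 against 471 CPM) and in plate B (337 against 698 CPM).

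Gm8300 averaged 50.5 ± 55.5 CPM in WT and 91.3 ± 39.4 CPM in matPlag1KO 2c embryos (log2 fold change 0.87, SE 0.45, adjusted p = 0.256). Gm2022 averaged 75.2 ± 68.2 and 90.1 ± 49.4 CPM (log2 fold change 0.25, SE 0.43, adjusted p = 0.792). The 2 sparse rows, Gm4027 and Gm5662, gave log2 fold changes of 1.72 (SE 0.73, adjusted p = 0.154) and 0.83 (SE 0.84, adjusted p = 0.596). The intervals include differences of more than 2-fold for 5 of the 6 copies, so the depth and the spread between embryos do not settle whether they differed.

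**Figure D4:**
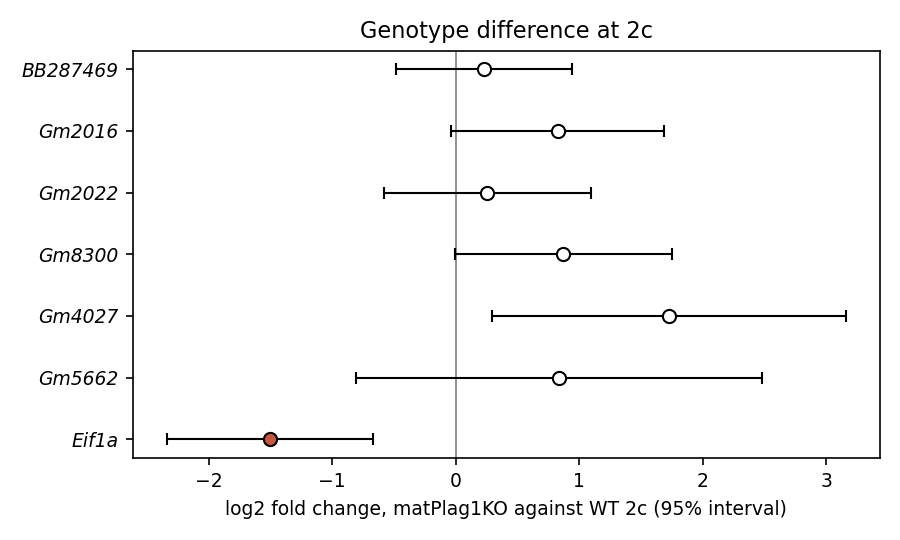
Points are log2 fold changes of matPlag1KO against WT 2c embryos from the edgeR fit (11 libraries in each group), and bars are 95% intervals. Only Eif1a, the filled point at -1.51, passed the test, and the 6 copies lie between 0.23 and 1.72.

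In MII oocytes 0 of the 7 genes were called by edgeR or DESeq2, and 0 in edgeR had an unadjusted p under 0.05, against 0.309% of all genes called higher and 0.472% lower. With 10 to 16 counts of the copies in a whole group, only very large differences could have been seen. At 8c, 0 of 7 were called by edgeR or DESeq2, again with 0 at an unadjusted p under 0.05, against 1.21% higher and 0.527% lower. Eif1a stood there at 274 ± 60.0 CPM in WT (n = 15) and 227 ± 40.6 CPM in matPlag1KO embryos (n = 11), a log2 fold change of -0.27 (95% interval -0.88 to 0.34, adjusted p = 0.758). BB287469 at 8c averaged 14.1 ± 11.7 and 13.6 ± 6.93 CPM, and within WT its plates differed, with 5.91 ± 1.08 CPM in plate A (n = 7) and 21.3 ± 12.0 CPM in plate B (n = 8).

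Whether the genotype difference itself changed with stage was tested by interaction terms. Of the 7 genes 0 were called for 2c against MII, where 1.62% of all genes were called higher and 1.68% lower, and 0 for 2c against 8c, where 1.17% were higher and 1.13% lower. Unadjusted p values were under 0.05 for Gm8300 in the first (p = 0.042) and for Eif1a in the second (p = 0.0197). For Eif1a the difference at 2c was more negative than at 8c by 1.24 on the log2 scale (SE 0.52, adjusted p = 0.182). That the lower Eif1a was particular to 2c is therefore not shown.

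Within the summed counts of the copies, the BB287469 row held the most at 2c. This row spans 99307 bases and holds a second start and the whole Gm4027 row, so its share is not that of a single gene. It held 70.3% of 3002 counts in WT (exact binomial 95% interval 68.6 to 72.0) and 61.5% of 4789 counts in matPlag1KO embryos (60.1 to 62.9). Gm2016 held 21.3% (19.9 to 22.8) and 29.3% (28.0 to 30.6). Gm2022 held 4.96% and 4.18%, Gm8300 3.16% and 4.45%, and Gm4027 and Gm5662 each under 0.4%. The Gm2022 and Gm4027 rows begin 30 and 41 bases after their aligned starts, so their shares leave out ends at those starts.

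Single embryos spread more widely than these counting intervals. Per WT embryo the BB287469 share ran from 65.0% to 86.0%, with a median of 72.2%, and per matPlag1KO embryo from 55.8% to 70.1%, with a median of 61.1%. The Gm2016 share ran from 8.41% to 27.2% (median 19.1%) in WT and from 20.2% to 33.5% (median 30.6%) in matPlag1KO embryos. As counts of Gm2016 per count of BB287469, WT embryos had a lowest, median and highest value of 0.0978, 0.251 and 0.411, against 0.300, 0.490 and 0.600 for matPlag1KO embryos. The ranges overlapped, and no test was made of the shares.

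**Figure D5:**
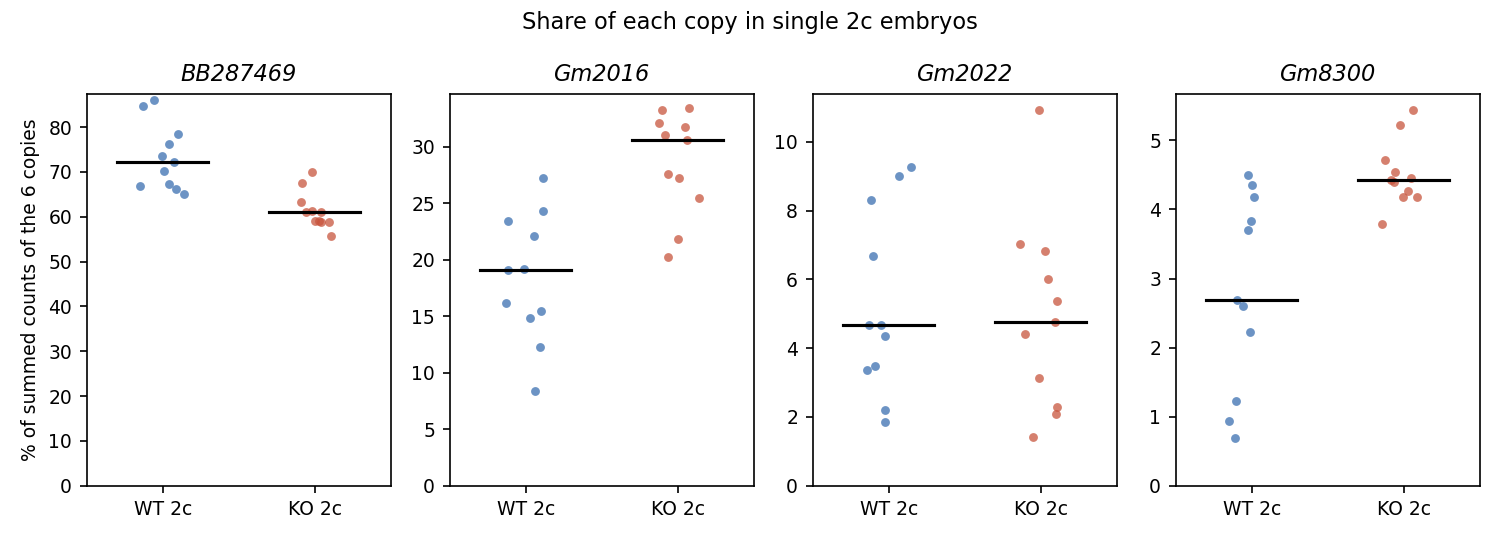
Share of each of the 4 abundant copies in the summed counts of the 6 copies, in percent, for each 2c embryo (11 WT in blue, 11 matPlag1KO in red), with the group median as a line. The medians of BB287469 are 72.2% and 61.1% and those of Gm2016 19.1% and 30.6%, with overlapping points. The BB287469 row also holds a second start and the Gm4027 row, so its share is not that of a single gene.

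At 8c, where the copies had 105 counts in WT and 76 in matPlag1KO embryos, BB287469 held 83.8% (75.3 to 90.3) and 71.1% (59.5 to 80.9), and Gm2016 14.3% (8.22 to 22.5) and 26.3% (16.9 to 37.7). No 8c embryo had the 20 copy counts set as a minimum for a share per embryo. Gm8300 made up 0 of the 105 and 0 of the 76.

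The genes most like the summed copies over the 6 group means were sought among 6264 tested genes with at least 20 CPM at 2c, by the root mean square difference of centred log2(CPM + 1) means. The nearest were Gm16381 (0.83), Gm12789 (0.85), Gm4850 (0.92), B020004C17Rik (1.00) and Oog1 (1.02), while Eif1a was at 4.54. Both chromosome 12 genes among them overlap the copies: Gm16381 lies on the opposite strand and overlaps the BB287469 row, and the Oog1 row covers BB287469, Gm4027, Gm2016 and Gm2022 on their own strand. Gm16381 averaged 1985 ± 883 CPM in WT and 1770 ± 991 CPM in matPlag1KO 2c embryos, and its row holds 2 of the aligned starts, on its own strand, each with 10 differences in 105 bases. Whether the counting used strand is not given in the sources used here, so reads of BB287469 and its overlapping neighbours cannot be told apart.

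Genes of the 43S preinitiation complex, in which eIF1A works, and of related initiation factors were taken as a list of 23 genes, all tested. Of these, Eif3j1 and Eif3j2 had nearly the same values, such as 35.1 CPM each in WT 2c embryos, so they may not be separate measures. From MII to 2c, 3 were called higher and 10 lower in WT, where 14.1% of all genes were called higher and 51.3% lower, so the shares in the list were near those of all genes. In the matPlag1KO series 0 were called higher and 14 lower, against 13.5% and 50.3% of all genes. From 2c to 8c, 20 were called higher and 0 lower in WT, against 31.9% and 16.2% of all genes. The matPlag1KO series had 19 called higher and 0 lower, against 29.1% and 19.5%. Eif2s2, the beta subunit of the factor that carries the initiator tRNA and the most abundant of the list at 2c, averaged 113 ± 57.9, 20.3 ± 7.09 and 145 ± 32.5 counts per 1000 spike-in counts in WT at MII, 2c and 8c. Eif1ax, singled out after its values were seen, averaged 5.40 ± 5.67, 2.24 ± 1.30 and 14.9 ± 5.19 on the same scale. It was called lower from MII to 2c in WT (log2 fold change -1.27, SE 0.35, adjusted p = 0.00112) and in the matPlag1KO series (-1.57, SE 0.36, adjusted p = 0.000111). Its mean CPM in WT was 114 at MII and 115 at 2c.

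Against WT at 2c, 6 of the 23 were called lower in matPlag1KO embryos and 0 higher, against 2.62% and 2.3% of all genes, with a list median log2 fold change of -0.39 where the median of all genes was 0.12. They were Eif2s1, Eif2s2, Eif3a, Eif3e, Eif3g and Eif3k, named after their values were seen. Eif2s2 had a log2 fold change of -0.90 (SE 0.23, adjusted p = 0.0129). Of the other 3 factors most abundant at 2c, Eif3c had -1.18 (adjusted p = 0.115), Eif3i -0.27 (adjusted p = 0.589) and Eif1 -0.16 (adjusted p = 0.877). Eif1a, with -1.51, thus had the sign of the called members of this list, and the copies had the other sign without a call.

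Of 28 genes known for high transcripts at 2c, 21 were tested. The list was picked for that course, so its rise into 2c and fall after it follow from the choice. The shares of all genes beside them are given for scale only. From MII to 2c, 15 of them rose in WT embryos and 1 fell, against 14.1% higher and 51.3% lower over all genes. For the matPlag1KO series 19 rose and 1 fell, against 13.5% and 50.3%. From 2c to 8c, 17 were called lower in WT and 18 in the matPlag1KO series, and 0 higher in both, against 16.2% and 19.5% of all genes lower and 31.9% and 29.1% higher. Against WT at 2c, 1 of 21 was called higher in matPlag1KO embryos (Tdpoz4, named after its values were seen) and 0 lower. Of all genes, 2.3% were called higher and 2.62% lower. The list had a median log2 fold change of 0.597 there, where the median of all genes was 0.118. Its median thus had the sign of the fitted values of the copies, and a link between them was not tested. The genes given next were picked for their level at 2c and do not stand for the direction of the list. Zfp352, a zinc-finger gene of this list, averaged 277 ± 235 CPM in WT and 303 ± 114 CPM in matPlag1KO 2c embryos. Tmem92 averaged 1833 ± 479 and 1011 ± 459 CPM (log2 fold change -0.86, SE 0.41, adjusted p = 0.217). Tdpoz5 had a log2 fold change of -0.40 (SE 0.41) and Sp110 one of 0.10 (SE 0.40), neither called.

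The labels were checked on Plag1 and on stage markers. Plag1 had counts in 16 of 16 WT and 3 of 14 knockout oocytes (log2 fold change -5.64, SE 0.65, adjusted p = 1.48e-10). At 2c only 1 of 11 WT embryos had counts of it, against 9 of 11 matPlag1KO embryos, and since the fathers carried the intact allele this does not check an embryo's label. Summed over 7 oocyte genes the median was 6030 CPM in WT oocytes, 3372 in WT 2c and 73.3 in WT 8c embryos, and over 5 2c genes it was 2.11, 200 and 2.48 CPM. In matPlag1KO 2c embryos the oocyte genes had a median of 4910 CPM (2393 to 8693, against 1604 to 6580 in WT 2c) and the 2c genes one of 470 CPM (187 to 712, against 83.3 to 1082). Zscan4f of the 2c genes was at 0 counts in all groups. In oocytes the oocyte genes had a median of 14654 CPM in the knockout (4317 to 19075), above the WT median (4399 to 23390). Over 5 8c genes the medians were 1431 CPM in WT 8c (807 to 3325) and 657 CPM in matPlag1KO 8c embryos (247 to 2418). In WT they were 724 CPM at MII and 218 CPM at 2c, and in the knockout series 592 and 276 CPM. Krt18 of these genes was at 0 counts in WT oocytes and Krt8 in WT 2c embryos. All these ranges overlapped between the genotypes, and their part in the genotype values of Eif1a and the copies was not tested. Of 7 cumulus cell genes and 4 sperm genes, Ptx3, Prm1 and Tnp2 were at 0 counts in all groups. In each 2c group 5 of the 7 cumulus genes had counts. Their summed median was 39.4 CPM in WT (up to 106) and 32.6 CPM in matPlag1KO 2c embryos (up to 87.6). In oocytes it was 2.80 CPM in WT and 1.49 CPM in the knockout. Of the sperm genes 1 had counts in oocytes, with medians of 7.74 CPM in WT (up to 105) and 7.57 CPM in the knockout (up to 81.1).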

How the data were processed

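The 5′ ends of transcripts were sequenced for each oocyte or embryo in 2 pooled libraries, labelled libA and libB and called plates A and B here. The authors deposited raw counts per annotated gene, together with counts of 92 ERCC spike-in RNAs. The alignment was made with TopHat on mm9 after reads with the same molecular identifier had been merged, and HOMER did the counting. No normalization was applied to the deposited counts. Every column matched a label.

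The members and gene lists were chosen with earlier results of these data known. Of 90 libraries, 12 were dropped because their median CPM was under 1 over genes reaching 1 CPM in 5 or more libraries, and 78 were kept. The test took the 16511 of 24422 genes that reached 1 CPM in 5 or more kept libraries. All 6 groups were fitted together with edgeR 4.0.16 (R 4.3.3) with a mean per group, by the quasi-likelihood test, with TMM factors for genotypes and spike-in totals as library sizes for stages. Intervals of fold changes are 1.96 standard errors to each side. Standard errors were derived from the fold change and the F statistic. The fit was tested on simulated counts. Alternatives were the other scaling, DESeq2 1.42.0, no filter, all libraries, plate as a term, each plate alone, only the groups compared, a well block and, added after the data were seen, each 2c library left out.

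Gene counts per kept library ranged from 92475 to 2502421, and from 92475 to 256529 at 2c. On the TMM-scaled sizes of the 2c libraries, 100 CPM stood for 12.5 to 30.8 counts. Oocytes that shared a well on the plates, of opposite genotype, deviated together (correlations of 0.174 to 0.817 over 14 pairs and 8418 genes). The well was therefore used as a pairing in an alternative fit of the oocytes, while the oocyte values reported come from the fit without it. The 2 such pairs of 2c embryos had correlations of 0.0256 and 0.205. Named genes were all members, Plag1, the 5 nearest profiles, and the 4 genes of each list highest at 2c. Sequences were read from the mm9 genome and coding regions from GENCODE vM1.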

Additional observations from a re-analysis of the deposited data

Results flagged for a closer look

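Signal of the copies also appeared in 2c libraries that were left out for low content. In a matPlag1KO 2c embryo of plate B (well D1, 84921 gene counts) the summed copies stood at 8584 CPM on the total of gene counts, with 729 counts of the copies and 7 of Eif1a. The highest kept 2c libraries had 4250 CPM in WT and 4946 CPM in matPlag1KO on the same scale. The other left-out 2c libraries, 3 WT and 2 matPlag1KO embryos, had between 2031 and 3896 CPM of the copies, on 9 to 366 counts, and 0 to 2 counts of Eif1a.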

How the results depend on the processing

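At 2c, the count of members called between genotypes, 1 as reported, was 0 with spike-in scaling, with no library left out, in plate A alone, in plate B alone and in a fit of only the 2 groups. It was 1 without the filter, with plate as a term and with DESeq2, and 0 to 1 when single 2c libraries were left out. The log2 fold change of Eif1a ranged from -2.11 to -1.30 over those 22 libraries, and was -1.27 with spike-in scaling (adjusted p = 0.133), -1.10 with all libraries (0.111), -1.29 in plate B (0.181) and -1.46 with 2 groups (0.102). BB287469 changed sign at 2c in plate A (-0.37), and at 8c from -0.02 to 0.0043 with spike-in scaling, 0.11 with plate as a term, 0.96 in plate A and 0.040 with DESeq2. Gm4027 and Gm5662 missed the filter on low counts in plate A alone and so had no value in any comparison there, and DESeq2 gave them no adjusted p between genotypes at 2c. The causes of these changes were not tested. Gm4027 in WT was called with TMM scaling and with all libraries, both from MII to 2c (adjusted p = 0.00498 and 0.0117) and from 2c to 8c (0.0206 and 0.0127). Gm5662 lost its rise in plate B for WT (0.293) and with DESeq2 for the matPlag1KO series (0.232).

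The counts of members called in the other comparisons stayed within 1.5 times of those reported under every alternative run. With the well as a replicate block in oocytes 0 members were called, as without it. Over all genes at 2c, 379 were called higher and 433 lower with TMM, and 191 and 94 with spike-in scaling, which moved the median by 0.16 on the log2 scale. At MII that shift was 0.30. From MII to 2c it was -1.43 in WT and -1.56 in the matPlag1KO series. From 2c to 8c it was 0.65 and 0.60. Depth limits Gm4027, Gm5662 and all oocyte values, which rest on a few counts.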

Other observations

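Embryos of 1 genotype differed widely in the copies at 2c, and 4 relations across 2c embryos were computed on log2(CPM + 1), chosen after the values were seen, with 100000 resamples and Benjamini-Hochberg adjustment over the 4. BB287469 and Gm2016 went together, with Pearson's r = 0.96 in WT (permutation p = 1e-05, the smallest the resamples can give, adjusted 4e-05, Spearman's rho = 0.94, p = 6e-05, adjusted 0.00012) and r = 0.91 in matPlag1KO embryos (permutation p = 8e-05, adjusted 0.00016, rho = 0.95, p = 5e-05, adjusted 0.00012), 11 embryos each. Without the 2 embryos farthest from the median r was 0.95 and 0.80, and in plate B alone 0.97 (n = 7) and 0.84 (n = 6). Plate A held 4 and 5 embryos, too few for a value. The rows lie in 1 cluster and have like sequence, though the 50-base read from the first base of each did not occur in the other. Whether reads from elsewhere in the rows were shared was not tested, so shared reads and shared level were not told apart here.

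The summed copies and Eif1a gave r = -0.55 in WT (permutation p = 0.075, adjusted 0.0999, rho = -0.65, p = 0.0337, adjusted 0.0449) and r = -0.29 in matPlag1KO embryos (permutation p = 0.376, adjusted 0.376, rho = -0.18, p = 0.589, adjusted 0.589). Without the 2 farthest embryos r was -0.66 and 0.13, so that in matPlag1KO embryos the sign rests on those embryos, and in plate B alone r was -0.41 and -0.42. The measures come from the same library and share its depth.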
